A study of Homo sapiens with 12 samples.

Results

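Huh7 is a line grown from a human hepatocellular carcinoma, and the experiment described here asked which transcripts changed in these cells after 24 h with Molidustat. Molidustat blocks the prolyl hydroxylases (PHD enzymes) that hydroxylate the alpha subunits of the hypoxia-inducible factors (HIF). The comparison held 6 of the 12 libraries of the series, chosen by their labels: 3 from cells given 25 µM Molidustat for 24 h and 3 from cells given DMSO alone, the solvent, for the same time. The other 6 libraries come from the same pair of treatments after 48 h. All cells were of this 1 line, grown in high-glucose medium with fetal calf serum, and the labels name no edited allele in any group. The paper calls the replicates biological and the record of the series speaks of triplicate RNA extractions, so that n = 3 may cover the spread between extractions and not between cultures.

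HIF is a transcription factor whose alpha subunit is short-lived in well-oxygenated cells, because hydroxylation of its prolines marks it for breakdown through VHL. A drug that blocks the hydroxylases, like low oxygen, lets the subunit persist, and with its partner HIF-1β (ARNT) it acts at DNA sites with the core letters ACGTG or GCGTG. Known targets raise glucose uptake, glycolysis and lactate export, slow pyruvate entry into mitochondria, remove mitochondria by mitophagy, modify collagen, and include the hormone erythropoietin, which is made in kidney and liver.

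The libraries read the 3′ ends of transcripts, and the deposited values were whole read counts for 60666 genes. The gene total of a library ranged from 2462623 to 4744982 counts with DMSO and from 2703897 to 8202125 with Molidustat. Molidustat replicate 2 was the deepest library. It also had the smallest share of mitochondrial transcripts (1.46%, against 2.40 to 3.80% in the other 5) and the largest share of counts in its 10 most abundant genes (9.71%, against 6.08 to 7.50%). Over the groups, the gene total, the mitochondrial share and the top 10 share overlapped, with two-sided exact permutation p of 0.4, 0.4 and 0.2, where 0.1 is the smallest that 3 against 3 allows. The part of this library in the results below was not tested beyond leaving it out.

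The hepatocyte identity of the cells was checked with marker genes. All 13 hepatocyte and hepatoma markers were detected in the 6 libraries, the highest being AFP, a fetal plasma protein that liver tumours secrete, at up to 10929.8 CPM, which are counts scaled to a common library size. EdgeR called 0 of the 13 changed, and DESeq2 called 2 higher. Their summed level was 17277, 17781 and 19083 CPM with DMSO and 24689, 25273 and 27691 CPM with Molidustat. Of 8 fibroblast markers none passed the filter on low counts and the highest, LUM, reached 7.09 CPM, while DCN and ACTA2 had no count. Of 7 endothelial markers none passed either, and 5 had no count, among them VWF and CDH5. Of 8 blood markers 4 had no count, among them CD3E and HBB, and LYZ was the highest at 151 to 238 CPM. In bulk RNA of this kind fewer cells of a type and less RNA per cell cannot be told apart. Of 5 cholangiocyte markers 3 passed the filter, among them SOX9, at 293 to 469.7 CPM, and KRT19, and none was called changed. KRT7 and CFTR did not pass, each with counts in only 2 of the 6 libraries.

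Of the 24945 genes with a count in these libraries, 12936 had enough counts to be tested with edgeR. In Molidustat-treated cells, 57 genes were upregulated at an adjusted p under 0.05, which is 0.441% of those tested, and 0 genes (0%) were downregulated. All 57 had a log2 fold change above 1, the smallest being 1.43, and in all 57 the lowest Molidustat library lay above the highest DMSO library. At an unadjusted p under 0.05 the counts were 590 higher (4.56%) and 231 lower (1.79%), and the 3 Molidustat libraries lay above the 3 DMSO libraries for 978 genes (7.56%) and below them for 627 (4.85%). Over all genes tested the median log2 fold change was 0.02 and 52.0% of values were above 0. The number of calls depended on single libraries: 29 genes were called higher without DMSO replicate 2, 31 without DMSO replicate 1 and 37 without Molidustat replicate 1, and 46 without Molidustat replicate 2, the deepest library. DESeq2, the tool of the study, called 150 higher and 10 lower in the same 6 libraries, all 57 among the former. Below, a gene that was called, passed or rose did so in the edgeR fit of these 6 libraries, and DESeq2 is named where its count for a list differs.

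**Figure D1:**
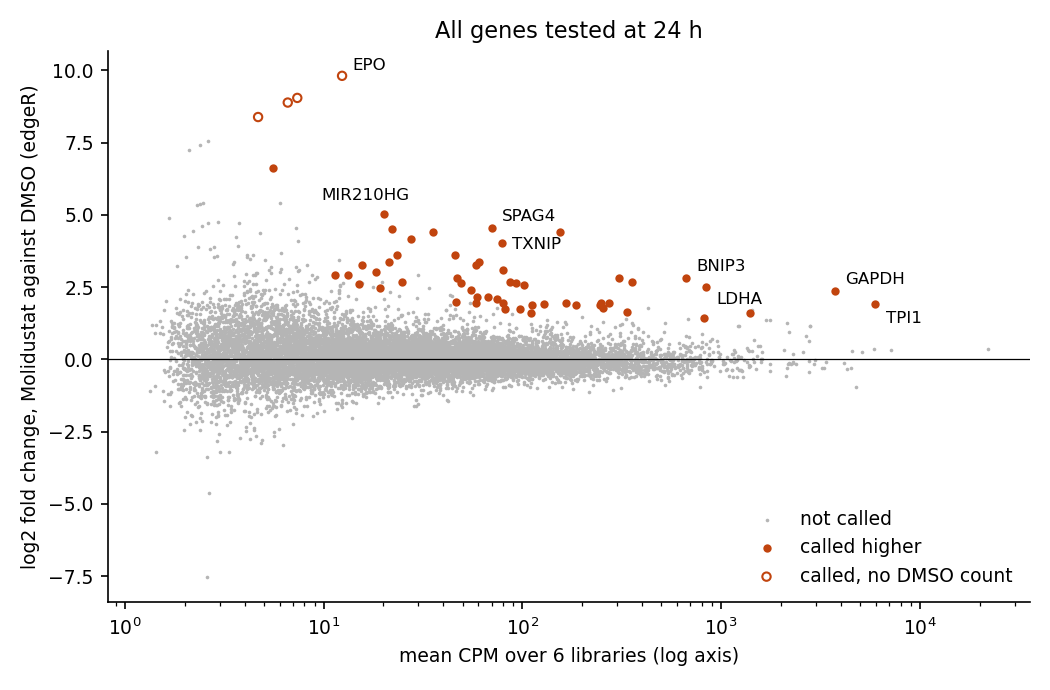
Each point is a gene tested at 24 h, with its mean CPM over the 6 libraries on a log axis and its log2 fold change for Molidustat against DMSO. The 57 genes called higher are red and spread from low counts to GAPDH and TPI1. Open circles are the 4 genes with no count in DMSO, whose fitted value depends on the offset added to zero.

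The gene with the smallest p-value was TXNIP (chr1:145992435-145996579 in GRCh38), which binds thioredoxin and limits glucose uptake. It was at 9.69, 9.62 and 8.15 CPM in the DMSO libraries and at 130.5, 129 and 187 CPM in the Molidustat libraries, so every treated library was far above every control. Its log2 fold change was 4.03 ± 0.33 (SE, n = 3 against 3, adjusted p = 6.93e-05). SPAG4, a protein of the nuclear envelope, rose from 10.2, 2.81 and 3.65 to 135, 159 and 112 CPM, a log2 fold change of 4.56 ± 0.45 (adjusted p = 0.000337). TMCC1, a membrane protein of the endoplasmic reticulum, was among the steadiest, at 28.8, 27.7 and 31.1 CPM with DMSO and 162, 194 and 165 CPM with Molidustat (2.57 ± 0.28, adjusted p = 0.00047).

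In these genes, and in MXI1, PGK1, BNIP3, DDIT4, BNIP3L, LDHA, CXCL8 and BNIP3P1, which also have some of the smallest p-values, the groups did not overlap and the call was made in all 6 fits that left out 1 library. The same held for 25 of the 57 genes. Only PDK1-AS1 and CXCL6 were called in none of those fits.

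The letters of the HIF core site were looked for in the promoters of the upregulated genes, from 250 bases before to 50 after each start in RefSeq (GRCh38.p14), which held windows for 42 of the 57 genes. ACGTG, on either strand, was in 28 of 65 windows (43.1%, 95% exact interval 30.8 to 56.0%), against 26.0% of 13656 windows of tested genes and 21.4% of 35116 windows in all. With GCGTG counted as well, the shares were 67.7%, 61.5% and 48.4%. ACGTG is also part of the palindrome CACGTG, to which other factors of the same family bind and which was in 13.8% of the windows of upregulated genes and 9.51% of those of tested genes. Several windows can belong to 1 gene and can overlap. The exact interval takes the 65 windows of 42 genes as independent, so it may be too narrow, and no share per gene was computed. A match is a description and not evidence of binding. The stretches below come from the 6 upregulated genes with the smallest p-values that have ACGTG wholly before the start with 12 bases on each side. The match nearest to the start is printed 5′ to 3′ on the strand of the gene, with the motif in capitals (ACGTG, or CACGT where it lies on the other strand).
TXNIP: gtggtttgaattACGTGttgttgcttcct
MXI1: gtggccaccagtCACGTaagcagagagcc
PGK1: aaacggaagccgCACGTctcactagtacc
BNIP3: cgcacgcgccgcACGTGccacacgcaccc
DDIT4: agaacgttgcttACGTGcgcccggagtcc
LDHA: cgtgggttcccgCACGTccgccggccccc
These lie at chr1:145995890-145995918 (minus strand), chr10:110210106-110210134 (plus), chrX:78104053-78104081 (plus), chr10:131982040-131982068 (minus), chr10:72273787-72273815 (plus) and chr11:18394478-18394506 (plus), each before the RefSeq start its promoter window was built on. Those of TXNIP, MXI1 and PGK1 lie inside the full extent of the gene in GENCODE, which has transcripts that start further upstream. The one in BNIP3 is part of CACGTG and the other 5 are not.

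Among the oxygen sensors themselves no gene passed the test (0 of 14 tested, median log2 fold change 0.16, 8 above 0), and the median went from below 0 without DMSO replicate 1 to 0.31 without DMSO replicate 3. EGLN1, which encodes PHD2, the main HIF prolyl hydroxylase, came nearest. It was at 23.9, 29.7 and 54.5 CPM with DMSO and at 100.2, 109.9 and 109 CPM with Molidustat, without overlap (1.56 ± 0.34, adjusted p = 0.0701). EGLN1 did pass without DMSO replicate 3 (adjusted p = 0.0314), with DESeq2 (0.00302), with limma-voom (0.0481), with at least 10 counts in every library (0.0313), without a filter (0.00185) and in a fit of 11 libraries (0.013). ELOC, the elongin of the VHL complex and the most abundant of the list, was at 301 to 381 and 197 to 303 CPM (-0.34 ± 0.28, adjusted p = 0.964). EGLN2 (PHD1) was at 43.8 to 70.1 and 36.2 to 45.4 CPM (-0.45 ± 0.32, adjusted p = 0.93), and EGLN3 (PHD3) stayed under 10 CPM in all 6 libraries (1.06 ± 0.96, adjusted p = 0.97). Without DMSO replicate 2 EGLN2 and EGLN3 were at -0.26 and 0.53, and without DMSO replicate 3 at -0.63 and 2.16. The subunit HIF1A was at 137, 85.8 and 113 CPM with DMSO and 151, 238 and 125 CPM with Molidustat, with overlapping groups (0.62 ± 0.31, adjusted p = 0.831). EPAS1, which encodes HIF-2α, was at 174 to 196 and 185 to 467 CPM (0.66 ± 0.33, adjusted p = 0.831). In both, the high value came from Molidustat replicate 2, and without it the log2 fold changes were 0.30 and 0.15. VHL ranged from 119 to 318 CPM with DMSO and from 111 to 276 CPM with Molidustat (0.20 ± 0.41, adjusted p = 0.975).

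Feedback regulators and partners of HIF lay mostly above 0. Of 13 tested, 1 was upregulated, 11 had a log2 fold change above 0, 9 had an unadjusted p under 0.05 and the median was 1.47, against 0.02 over all genes. MXI1, a repressor that competes with MYC for its partner MAX, was at 9.45, 13.2 and 9.44 CPM with DMSO and at 94.2, 153 and 82.7 CPM with Molidustat (3.38 ± 0.37, adjusted p = 0.00047). CITED2, which competes with HIF-α for the coactivator p300, was at 90.8 to 133 and 214 to 437 CPM, and BHLHE40, a repressor of the clock, at 3 to 13.5 and 35.6 to 41.9 CPM. Neither passed (adjusted p = 0.0767 and 0.0803), although their groups did not overlap. The summed level of the whole list was 432 to 539 CPM with DMSO and 963 to 1453 CPM with Molidustat. DESeq2 called 6 of these 13 members, and edgeR called 2 without DMSO replicate 3. Of the 26 tested dioxygenases that act on histones and nucleic acids and, like PHD enzymes, use 2-oxoglutarate, none passed (median 0.25, or 0.39 without DMSO replicate 3), and ALKBH5, an RNA demethylase, had the smallest p (1.17 ± 0.29, adjusted p = 0.137). DESeq2 called 2 of the 26, and ALKBH5 passed with it (adjusted p = 0.0114), without a filter (0.0293) and in the fit of 11 libraries (0.0268).

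Glycolysis held the largest share of calls among the lists examined in the edgeR fit of all 6 libraries. The lists were chosen with earlier results of these data known, so this ranking is not independent of the data. Of 17 members tested, 10 were upregulated, against 0.441% of all genes tested. Of the 17, 15 were above 0 and the median log2 fold change was 1.61. DESeq2 called 13 of the members. Their summed level was 6916, 7413 and 5857 CPM in the DMSO libraries and 21758, 36579 and 16291 CPM in the Molidustat libraries, of which replicate 2 was the highest. Following glucose through the pathway, the transporter SLC2A1 (GLUT1) rose from 23.9, 15.6 and 16.1 to 72.9, 89.5 and 59.6 CPM (1.99 ± 0.34, adjusted p = 0.0111). HK2, the only hexokinase of the list that passed the filter, overlapped between groups (1.16 ± 0.50, adjusted p = 0.71). PFKFB4 and PFKFB3, which make and remove the activator fructose 2,6-bisphosphate, rose by 4.16 ± 0.62 and 3.04 ± 0.53 on the log2 scale (adjusted p = 0.00427 and 0.0124). The phosphofructokinase of liver, PFKL, lay just outside the threshold (1.59 ± 0.33, adjusted p = 0.0505), and PFKM of muscle was at -0.68 ± 0.52 (adjusted p = 0.938).

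Further down the pathway the aldolase ALDOC was at 0, 3.21 and 2.58 CPM with DMSO and at 43.7, 35.5 and 47.2 CPM with Molidustat (4.51 ± 0.70, adjusted p = 0.0059), while its paralogue ALDOA had a smaller fold change and did not pass (1.37 ± 0.30, adjusted p = 0.0658). PGK1, the first enzyme to yield ATP, rose from 76.1, 75.0 and 78.1 CPM to 496, 734 and 374 CPM (2.81 ± 0.31, adjusted p = 0.00047). TPI1, GAPDH, ENO1, PGAM1 and PKM, the remaining enzymes to pyruvate, rose by 1.92, 2.38, 1.61, 1.61 and 1.43 on the log2 scale (adjusted p = 0.0127, 0.0152, 0.013, 0.0286 and 0.0366). GAPDH was at 3988, 11642 and 3168 CPM in the Molidustat libraries against 1091 to 1323 CPM with DMSO, and without Molidustat replicate 2 its log2 fold change was 1.57, still called. With 1 library left out, the members called numbered 4, 3 and 4 without DMSO replicates 1, 2 and 3 and 5, 8 and 10 without Molidustat replicates 1, 2 and 3, and all 10 stayed above 0 in each of these fits. Glycolysis did not lead in all of them. Without DMSO replicate 3 the list of collagen hydroxylases and lysyl oxidases had 5 calls. Without DMSO replicate 2 the list of lactate handling had 4. With replicate number as a block in the fit of all 6 libraries, 4 of the 17 glycolysis members were called, and 3 of 12 in the collagen list.

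The fate of pyruvate showed 3 calls of 19 genes tested, in a list whose median was -0.05 (0.03 without Molidustat replicate 2 and -0.15 without DMSO replicate 3), and DESeq2 called 4. LDHA, the lactate dehydrogenase subunit that favours lactate, rose from 251, 260.1 and 248 CPM to 1343, 1822 and 1098 CPM (2.49 ± 0.29, adjusted p = 0.000578). SLC16A3 (MCT4), which exports lactate, rose from 3.54, 5.61 and 1.72 CPM to 41.5, 55.1 and 33.2 CPM (3.63 ± 0.50, adjusted p = 0.0023). PDK1, the kinase that switches off pyruvate dehydrogenase, rose from 3.78, 1.6 and 14.6 CPM to 86.3, 111 and 57.8 CPM (3.60 ± 0.57, adjusted p = 0.00715). The other members, which include the pyruvate dehydrogenase subunits and carbonic anhydrases, did not pass, among them LDHB at -2.27 ± 1.41 (adjusted p = 0.9) and the mitochondrial pyruvate carrier MPC1 at -0.79 ± 0.29 (adjusted p = 0.562).

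Glycogen genes gave 2 calls of 19 tested (median 0.50, 15 above 0), with a median of 0.31 without DMSO replicate 2 and 0.33 without Molidustat replicate 2, and DESeq2 called 3. PGM1, which links glucose 1-phosphate to glucose 6-phosphate, rose from 13.5, 13.6 and 25.1 CPM to 78.9, 119.6 and 81.2 CPM (2.41 ± 0.36, adjusted p = 0.00434). PHKA2, a regulatory subunit of liver phosphorylase kinase, rose from 2.36, 2.41 and 3.86 CPM to 33.3, 35.8 and 15.5 CPM (3.26 ± 0.54, adjusted p = 0.00862). Leaving out 1 library left PGM1 uncalled without DMSO replicate 2, and PHKA2 uncalled without DMSO replicate 1 or 2 or Molidustat replicate 1 or 2. The glycogen synthase GYS1 did not pass (1.02 ± 0.42, adjusted p = 0.677), nor did any of the 4 gluconeogenesis genes tested, of which PC had the smallest p (0.46 ± 0.33, adjusted p = 0.93).

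In the list of mitophagy and mitochondrial dynamics the calls were for mitophagy receptors, which mark mitochondria for removal. BNIP3 was at 181, 204 and 107 CPM with DMSO and at 1173, 1009 and 1304 CPM with Molidustat (2.83 ± 0.32, adjusted p = 0.00047). BNIP3L, its paralogue also called NIX, was at 122, 62.9 and 103 CPM and at 656, 552 and 635 CPM (2.67 ± 0.31, adjusted p = 0.000578). EdgeR called no other of its 23 members, whose median was 0.03 (0.17 without DMSO replicate 1), while DESeq2, the fit of 11 libraries and the fit without a filter called 4 each. MTFP1, a fission factor, and FUNDC2, a relative of the receptor FUNDC1, had values of 1.45 ± 0.32 and 1.33 ± 0.31 and did not pass (adjusted p = 0.0683 and 0.0973).

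Genes of oxidative metabolism gave no calls. None of 72 nuclear-encoded subunits of the respiratory chain passed, and their median log2 fold change was -0.10 with 51 of them below 0. That sign rested on single libraries, the median being 0.03 without Molidustat replicate 2 and 0.13 without DMSO replicate 3, and at 48 h it was 0.37 without DMSO replicate 2. The member with the smallest p was CYC1, cytochrome c1, at -0.49 ± 0.29 (adjusted p = 0.889), and the most abundant, NDUFV2 of complex I, was at -0.09 ± 0.27 (adjusted p = 0.983). None of 18 TCA cycle genes passed (median -0.19, 14 below 0; IDH2 0.54 ± 0.28 and MDH2 -0.23 ± 0.27), nor did any of 15 transcripts of the mitochondrial genome (median -0.20, 13 below 0). With 1 library left out the TCA median ranged from -0.32 (without DMSO replicate 3) to -0.10 (without Molidustat replicate 3; -0.12 without replicate 2) and that of the mitochondrial genome from -0.49 (without Molidustat replicate 3) to -0.09 (without DMSO replicate 3; -0.11 without Molidustat replicate 2), and at 48 h the last was 0.05. Of these transcripts, MT-ATP6 was at 3416, 4525 and 10888 CPM with DMSO and 3118 to 3311 CPM with Molidustat, so its difference came mainly from DMSO replicate 3. The ribosomal RNA MT-RNR2, the most abundant, spread from 1994 to 14499 CPM within the Molidustat libraries (0.37 ± 0.54, adjusted p = 0.973). Proteins of the mitochondrial ribosome had 0 calls of 77, with 61 values below 0, a median of -0.26 (-0.16 without Molidustat replicate 2) and 4 unadjusted p under 0.05, all lower. MRPL11, the most abundant, had a value of -0.25 ± 0.26 (adjusted p = 0.97). MRPL1, the member with the smallest p, was at 119, 107 and 107 CPM and at 52.0, 63.1 and 63.5 CPM (-0.90 ± 0.27, adjusted p = 0.352). The summed level of the list was 11560, 12662 and 12329 CPM with DMSO and 10766, 8884 and 10831 CPM with Molidustat, lowest in replicate 2.

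Collagen hydroxylases and lysyl oxidases had 4 calls of 12 tested, 9 values above 0 and a median of 1.02, and DESeq2 called 5. P4HA1 and P4HA2, the catalytic subunits of prolyl 4-hydroxylase, which stabilises the collagen helix, rose by 2.14 ± 0.35 and 1.89 ± 0.37 on the log2 scale (adjusted p = 0.00807 and 0.0346). PLOD2, which hydroxylates collagen lysines, rose from 101, 77.8 and 134 CPM to 372, 419 and 377 CPM (1.90 ± 0.29, adjusted p = 0.00467). LOX, which oxidises lysines to cross-link collagen, rose from 20.1, 36.1 and 29.8 CPM to 123, 141 and 97.1 CPM (2.08 ± 0.32, adjusted p = 0.00612). With 1 library left out, the members called numbered 0 without DMSO replicate 1, 1 without DMSO replicate 2 and 2 without Molidustat replicate 1. LOXL4 was near the threshold (2.48 ± 0.53, adjusted p = 0.0658), with its highest value, 103 CPM, in Molidustat replicate 2, without which its log2 fold change was 1.75.

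Growth restraint genes gave 3 calls of 25 tested (median 0.38, 18 above 0), against 6 by DESeq2. TXNIP is described above. DDIT4 (REDD1), an inhibitor of mTORC1 signalling, rose from 17.0, 12.8 and 19.5 CPM to 201, 94.0 and 134 CPM (3.10 ± 0.36, adjusted p = 0.000578). INSIG2, which keeps the sterol regulator SCAP in the endoplasmic reticulum, rose from 57.2, 50.1 and 53.4 CPM to 239, 169 and 204 CPM (1.93 ± 0.28, adjusted p = 0.00378) and was not called without DMSO replicate 2. Of the others, NDRG1 had a value of 2.54 ± 0.66 (adjusted p = 0.171) and SESN2 one of -1.09 ± 0.47 (adjusted p = 0.708).

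The listed genes of cell growth and division gave no calls by edgeR or DESeq2. The 10 genes that DESeq2 called lower, named further below and among them NIP7 and EBNA1BP2, are not in these lists. Of 42 ribosome biogenesis factors, 35 were below 0, the median was -0.40 and 6 had an unadjusted p under 0.05, all lower. Of these, PPAN was at 143, 171 and 117 CPM with DMSO and at 81.1, 57.1 and 85.3 CPM with Molidustat (-0.95 ± 0.29, adjusted p = 0.352), and NPM1, the most abundant of the list, at 1264 to 1559 and 1025 to 1169.6 CPM (-0.40 ± 0.26, adjusted p = 0.92). Their summed level was 5571, 5459 and 5146 CPM with DMSO and 4206, 3510 and 4533 CPM with Molidustat, without overlap. Of 77 cytosolic ribosomal proteins none passed (median -0.08, or 0.19 without DMSO replicate 3 and -0.23 without DMSO replicate 1; RPL4 -0.58 ± 0.26 and RPS2 0.26 ± 0.35), and of 43 genes for MYC, cyclins and DNA replication none passed (median -0.12, or -0.21 without DMSO replicate 3, 27 below 0). CDC20, a mitotic activator of the anaphase-promoting complex, had the smallest p there (-0.81 ± 0.28, adjusted p = 0.512), and CCND1, the most abundant, was at 488 to 700.4 and 603 to 719 CPM (0.09 ± 0.27, adjusted p = 0.983).

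Among secreted factors, EPO (chr7:100720468-100723700), the hormone that drives red cell formation, had no count in any DMSO library and was at 14.2, 42.8 and 17.3 CPM with Molidustat, from 464 counts in all. Against a floor of 3 counts over the DMSO group (0.263 CPM) it was at least 94.0-fold higher (adjusted p = 0.00113), and at least 59.8-fold without Molidustat replicate 2, its highest library. EPO passed the filter on low counts through the Molidustat libraries alone, and limma-voom did not call it (adjusted p = 0.112). At 48 h without DMSO replicate 2 its log2 fold change was 4.06 (edgeR, adjusted p = 0.00166). NPPB, a natriuretic peptide, rose from 4.02, 2.41 and 4.51 CPM to 57.2, 21.6 and 38.5 CPM (3.37 ± 0.50, adjusted p = 0.00427). It was the single call among 15 angiogenic and vasoactive factors (median 0.75, 13 above 0). VEGFA, the main growth factor of vessels, was at 40.6, 36.1 and 36.5 CPM and at 66.9, 77.2 and 84.7 CPM, without overlap, and did not pass (1.02 ± 0.29, adjusted p = 0.274). EPO was the single edgeR call among 13 hormones and growth factors (median 0.83, 12 above 0), of which DESeq2 called 4.

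Chemokines gave 3 calls of 18 tested, with 17 values above 0 and a median of 0.75, and DESeq2 called 5. The 3 are neutrophil attractants of the CXC family that lie near each other on chromosome 4. CXCL8 (interleukin-8) rose from 19.8, 33.3 and 23.4 CPM to 192, 146 and 142 CPM (2.66 ± 0.32, adjusted p = 0.000691). CXCL1 rose from 43.2, 51.7 and 38.8 CPM to 200.4, 155 and 93.4 CPM (1.75 ± 0.33, adjusted p = 0.0242), and CXCL6 from 6.85, 2.81 and 7.73 CPM to 41.5, 26.9 and 29.9 CPM (2.46 ± 0.48, adjusted p = 0.0328). Only CXCL8 kept its call without DMSO replicate 1, 2 or 3 or without Molidustat replicate 1 or 2. Of 14 interferon-stimulated and antigen presentation genes none passed in edgeR and 1 in DESeq2 (median 0.36), TAPBP, a chaperone of antigen loading, being just outside (1.94 ± 0.40, adjusted p = 0.0505) and B2M, the light chain of class I molecules, at -0.01 ± 0.28 (adjusted p = 0.999).

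Plasma proteins of hepatocytes had no call by edgeR and 3 by DESeq2, all higher: 33 of 42 tested were above 0, with a median of 0.38 and 8 unadjusted p under 0.05, all higher. TF, transferrin, the carrier of iron in blood, was at 1173, 1231 and 1354 CPM with DMSO and 2664, 3038 and 3377 CPM with Molidustat, and missed the threshold narrowly (1.27 ± 0.26, adjusted p = 0.0522). ALB, albumin, was at 1906 to 1951 and 2312 to 5332 CPM, the last in Molidustat replicate 2 (0.82 ± 0.33, adjusted p = 0.654; 0.33 without that library). AFP overlapped (0.33 ± 0.30, adjusted p = 0.97), with values from 0.04 without Molidustat replicate 3 to 0.52 without Molidustat replicate 2. Hepatocyte transcription factors were centred on 0 (0 of 24 called, median -0.02, or 0.16 without DMSO replicate 3), with NR0B2, a repressor of bile acid synthesis, at 2.25 ± 0.77 (adjusted p = 0.479) and XBP1 at -0.29 ± 0.26 (adjusted p = 0.97).

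Single calls came from other parts of liver metabolism. ARG1, the liver arginase that releases urea, rose from 5.20, 11.6 and 16.3 CPM to 77.4, 145 and 96.5 CPM (3.27 ± 0.43, adjusted p = 0.00156). It was the call among 8 urea cycle genes and arginases, where ARG2, the mitochondrial arginase, was at -1.46 ± 0.64 (adjusted p = 0.737). AK4, a mitochondrial adenylate kinase, rose from 88.4, 119 and 96.4 CPM to 406, 439.9 and 336 CPM (1.96 ± 0.28, adjusted p = 0.00289), among 9 genes of nucleotide pools, of which DESeq2 called 2. ERO1A, the oxidase that forms disulphide bonds in the endoplasmic reticulum, was the single call among 36 genes of the unfolded protein and integrated stress responses (1.94 ± 0.33, adjusted p = 0.0098), whose median was -0.01 (-0.07 without DMSO replicate 1). It was not called without DMSO replicate 2 or 3 or Molidustat replicate 1. Among 26 long non-coding RNAs MIR210HG, the host transcript of the hypoxia-related microRNA miR-210, rose from 2.84, 0 and 0.429 CPM to 41.9, 32.3 and 43.6 CPM (5.02 ± 0.71, adjusted p = 0.00306). It was not called by limma-voom (adjusted p = 0.152).

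The remaining lists had no call by edgeR, while DESeq2 called 1 lipid droplet gene and 2 iron genes higher and CTH lower. For lipids the medians were 0.36 over 31 cholesterol and fatty acid synthesis genes, of which 27 were above 0, 0.18 over 18 lipid droplet genes (0.01 without Molidustat replicate 3 and 0.29 without DMSO replicate 3) and -0.01 over 22 genes of fatty acid oxidation (-0.14 without Molidustat replicate 2 and 0.04 without replicate 1). PLIN2, which coats lipid droplets, was at 151, 169 and 226 CPM and at 403, 315 and 486 CPM (1.14 ± 0.29, adjusted p = 0.149), and SCD, a desaturase, overlapped (0.95 ± 0.32, adjusted p = 0.441). HMGCS1 of sterol synthesis (0.63 ± 0.33), AGPAT2 of triglyceride synthesis (0.47 ± 0.32) and the mitochondrial SLC25A20 and ETFA (-0.72 ± 0.41 and -0.35 ± 0.27) did not pass either. AGPAT2 was at 0.08 without Molidustat replicate 1 and at 0.68 without Molidustat replicate 2.

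Over 19 iron genes the median was 0.33, and FTL, the ferritin light chain, was at 18888 to 20241 CPM with DMSO and at 19002 to 35426 CPM with Molidustat, the highest in replicate 2 (0.35 ± 0.30, adjusted p = 0.97). The iron median was 0.15 without DMSO replicate 2. Over 25 NRF2 and antioxidant genes the median was 0.04 (-0.14 without Molidustat replicate 2 and 0.17 without replicate 3), with GPX4, which removes lipid peroxides, at 0.78 ± 0.27 (adjusted p = 0.516) and PRDX1, a peroxiredoxin, at 0.46 ± 0.39 (adjusted p = 0.97). Over 9 bile acid genes it was 0.14 (0.02 without DMSO replicate 2), with AKR1D1 at 1.72 ± 1.09 and AMACR at 0.14 ± 0.35. Without Molidustat replicate 1 AKR1D1 and AMACR were at 0.86 and -0.09, and without DMSO replicate 2 at 2.73 and 0.26. Genes of amino acid catabolism had a median of -0.11 over 17 members, which was -0.34 without Molidustat replicate 2 and 0.06 without replicate 3. CTH, which makes cysteine from cystathionine, was at 13.0, 8.82 and 11.6 CPM with DMSO and at 1.12, 0.502 and 2.65 CPM with Molidustat, without overlap, and did not pass (-2.96 ± 0.82, adjusted p = 0.224), and HGD of tyrosine breakdown was at -0.47 ± 0.31 (adjusted p = 0.924). Medians were -0.14 over 16 drug-metabolizing enzymes (-0.03 without Molidustat replicate 2; SULT2A1 -1.52 ± 0.70 and GSTP1 0.47 ± 0.28), 0.12 over 42 chromatin remodelling factors (-0.02 without DMSO replicate 3; KMT2E 0.78 ± 0.27 and SMARCA5 0.60 ± 0.37) and 0.26 over 21 apoptosis and p53 genes (TP53I3 0.63 ± 0.39 and BID -0.30 ± 0.33). The last median was 0.08 without Molidustat replicate 2 and 0.01 without Molidustat replicate 1, and was -0.06 at 48 h. BID was at -0.63 without Molidustat replicate 1 and at -0.08 without Molidustat replicate 2.

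Of the 57 upregulated genes, 22 were in none of the lists. Apart from SPAG4 and TMCC1 they include LGSN, a relative of glutamine synthetase (2.66 ± 0.39, adjusted p = 0.00399), FAM162A, a mitochondrial protein (1.76 ± 0.30, adjusted p = 0.011), and FUT11, a fucosyltransferase (2.69 ± 0.44, adjusted p = 0.00862), which were taken as examples after their values were seen. FAM162A and FUT11 were not called without DMSO replicate 1 or 2 or Molidustat replicate 1. By type, 49 of the 57 were protein-coding, 4 were long non-coding RNAs and 4 were pseudogenes. With EPO, 3 more had no DMSO count: GPR146 (19.4, 13.2 and 11.6 CPM with Molidustat, at least 55.9-fold higher), LGALS14, a galectin (17.2, 8.16 and 14.3 CPM, at least 50.1-fold higher), and PDK1-AS1 (16.1, 7.53 and 4.48 CPM, at least 35.5-fold higher and 22.8-fold without Molidustat replicate 1), all against the same floor. These 3 also passed the filter through the Molidustat libraries alone. Limma-voom called none of them (adjusted p = 0.0811, 0.13 and 0.26). At 48 h without DMSO replicate 2, edgeR called LGALS14 (adjusted p = 0.00108) but not GPR146 or PDK1-AS1 (0.343 and 0.435).

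Reads could have been given to either of several genes in some of these calls, since the strand setting of the counting is not given in the sources used here. PDK1-AS1 (chr2:172480840-172556596, minus strand) overlaps PDK1 (plus strand), and the long non-coding RNA ENSG00000258757 lies inside ERO1A on the other strand. ACSL3P1, a processed copy of ACSL3, lies inside TF on the same strand. It was at 4.02, 0 and 4.72 CPM with DMSO and at 56.8, 65.8 and 82.0 CPM with Molidustat (4.42 ± 0.60, adjusted p = 0.00213), while its parent ACSL3 was at 0.14 ± 0.28 (adjusted p = 0.976). BNIP3P1 (2.69 ± 0.34) and TPI1P1 (2.16 ± 0.35) had values close to those of their parents BNIP3 (2.83) and TPI1 (1.92). In all, 20 of the 57 genes overlap another tested gene, 7 of them on the same strand.

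The smallest adjusted p on the lower side was 0.0863, for NOTUM, a secreted enzyme that inactivates Wnt proteins. It was at 6.85, 5.61 and 3 CPM with DMSO and had no count with Molidustat. DDC, which decarboxylates aromatic amino acids, was at 52.9, 34.9 and 40.3 CPM and at 11.6, 16.4 and 13.8 CPM (-1.60 ± 0.37, adjusted p = 0.0938), and CCDC86 at 329.9, 307 and 251 CPM and at 151, 131 and 125 CPM (-1.13 ± 0.26, adjusted p = 0.101). These 3 were named after their values were seen, and DESeq2 counted them among its 10 lower genes, with HMGA2, MYB, CTH, ROGDI, NIP7, GNG4 and EBNA1BP2. EdgeR called none of the 10.

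The 24 h effect was set beside that at 48 h. DMSO 48 h replicate 2 stands apart from the other 11 libraries, with 1499273 counts on genes and 50.4% of its reads on no annotated gene, so values at 48 h are given without it. Of 13954 genes tested there, 88 (0.631%) were called higher, against 7 calls with all 3 DMSO libraries. Of the 57 genes called at 24 h, 41 were called at 48 h as well and 56 had a log2 fold change above 0, and their median was 2.13, against 2.66 at 24 h. The genes had been chosen at 24 h, so the higher median there is no result. BNIP3 had 2.83 at 24 h and 2.58 at 48 h, SPAG4 4.56 and 4.11, TXNIP 4.03 and 2.53, and CXCL8 2.66 and 5.49. PCDHB11 was the gene below 0 at 48 h (-0.03). With DMSO 48 h replicate 2 kept in, 52 of the 56 of these genes that were tested were above 0, and ERO1A (-1.67), ENSG00000258757 (-2.29), PCDHB11 (-1.81) and ZHX2 (-0.09) were below it.

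The difference between the times was tested as an interaction in all 12 libraries with edgeR. None of 14274 genes passed (smallest adjusted p = 0.728), with 968 unadjusted p under 0.05, and without DMSO 48 h replicate 2 none passed either (487 unadjusted p under 0.05). For CXCL8 the change from 24 h to 48 h was 2.74 ± 0.75 on the log2 scale, and for TXNIP -1.38 ± 0.41, both with adjusted p = 0.728. For BNIP3 it was -0.13 ± 0.45 (adjusted p = 0.978). DESeq2 called 4 genes in this test.

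**Figure D2:**
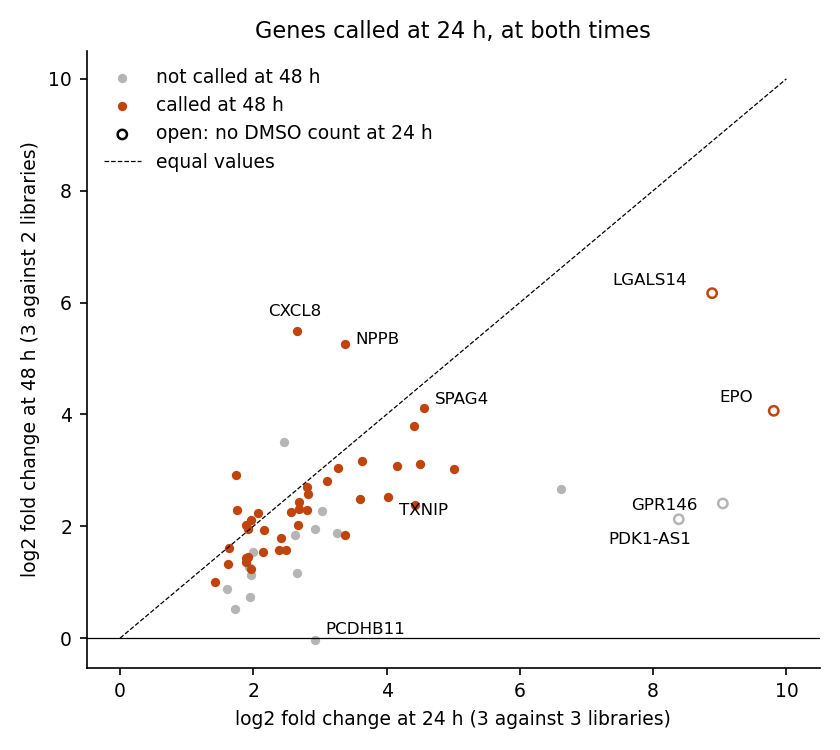
Log2 fold change of the 57 genes called higher at 24 h (3 against 3 libraries) and at 48 h (3 against 2, without DMSO replicate 2), with the 41 genes called at 48 h in red and a dashed line of equal values. All but PCDHB11 lie above 0 at 48 h, and 48 of the 57 lie below the line, CXCL8 and NPPB being farthest above it; open circles are genes with no DMSO count at 24 h.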

How the data were processed

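RNA was read from transcript 3′ ends in triplicate (QIAseq UPX kit, NextSeq). The authors aligned reads with STAR 2.7.9a to GRCh38 and made whole-number counts per gene with HTSeq 0.11.2, deposited without normalization; annotation release, strand setting and use of molecular identifiers are not given in the sources used here, so PCR copies may be counted, and the intervals and floors allow for counting error alone. Gene names and coordinates come from GENCODE 44, which names 60437 of 60666 genes. Summary lines were left out. In the 6 libraries at 24 h, reads on no annotated gene made up 19.4 to 25.6% of reads. No replicates agreed within sampling noise.

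In R 4.3.3, edgeR 4.0.16 (filterByExpr, minimum count 10; TMM; quasi-likelihood test; Benjamini-Hochberg adjustment) was fitted to the 6 libraries at 24 h, and to 12 for the interaction; a call is an adjusted p under 0.05. SE is the log2 fold change over the root of F; CPM are TMM-scaled. Alternatives were DESeq2 1.42.0, limma-voom 3.58.1, other scalings, filters and libraries. The study's threshold on fold change, a log2 value of 1, removed no call. The tests were checked on simulated data. Members and the 43 lists were chosen with earlier results of these data known. The text names, in each direction, the 12 called genes with the smallest p and separate groups, the called members of each list (at most 4) or, with none, those with the smallest p and highest mean, 6 HIF and PHD genes, and genes with no DMSO count. One gene that this rule names, with its list, and a marker gene are not reported here.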

Additional observations from a re-analysis of the deposited data

How the results depend on the processing

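With between 2462623 and 8202125 counts per library and 3 libraries a group, genes of a few CPM rest on few reads, and only large differences pass. The 57 genes called higher became 150 with DESeq2, 154 without a filter on low counts, 113 in a fit of 11 libraries without DMSO 48 h replicate 2, and 33 in a fit of all 12 libraries. Leaving out each library in turn gave 29 to 60 calls. Of the 57, 39 were called by limma-voom, 33 in the fit of 12 libraries and 44 without Molidustat replicate 2, and all 57 kept their direction in those fits. Genes of low count and large fold change were among those limma-voom did not call, such as MIR210HG, ALDOC, PFKFB4 and NPPB (adjusted p = 0.152, 0.12, 0.123 and 0.153). With replicate number as a block, ALDOC and PFKFB4 were not called either (edgeR, adjusted p = 0.0683 and 0.0739), while MIR210HG and NPPB were. The 0 genes called lower became 10 with DESeq2, 7 without a filter and 5 in the fit of 11 libraries, and 0 to 1 when a library was left out. The 0 calls of the interaction became 4 with DESeq2 and 321 without a filter, and stayed at 0 when each library was left out. The cause of these shifts was not tested. RLE factors, total counts, at least 10 counts in every library, thinning to 2462623 counts and the fold threshold left between 55 and 70 genes higher and 0 lower, though with at least 10 counts in every library only 38 of the 57 were tested, all of them called, and under these scalings the median of all genes moved by less than 0.1 on the log2 scale. Of 41 lists with tested members, the median changed sign for 12 when a library was left out: respiratory chain, cytosolic ribosomal proteins, lactate, gluconeogenesis, oxygen sensors, hepatocyte transcription factors, NRF2, amino acid catabolism, fatty acid oxidation, chromatin, long non-coding RNAs and blood markers. The share of promoter windows with ACGTG alone was 43.1%, against 67.7% with GCGTG counted as well.

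Whether replicate numbers pair the samples was not tested. The deviations of libraries with the same number correlated at 0.0276, -0.0229 and 0.136, the last being the highest of all pairs. Those of libraries with unlike numbers correlated at -0.104 to 0.0714. With the replicate block 33 genes were called higher, all among the 57, and 0 lower.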
